A study of Mus musculus with 6 samples.

Results

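The genes described here build and control the mitotic spindle: 46 genes of the kinetochore, the spindle checkpoint and the kinases of mitosis, matched by symbol among the 26771 genes listed in any of the 6 deposited tables. Each of the 46 was listed in all 6 libraries. The libraries came from γδT17 cells, which are γδ T cells producing interleukin-17, of C57BL/6 TCRβ-/- mice, which lack the T cell receptor β chain in every cell of both groups. Initial cells (n = 3) were sorted from spleen without culture, and the sources used here do not describe the gate. Induced cells (n = 3) were grown from splenocytes in culture with the cytokines IL-1β and IL-23, harvested on day 8 and purified with a pan T cell isolation kit, and per the labels most of them made IL-17A. The same letters, A, B and C, name the mice in both groups, and the sources used here give no age. Cells of the 2 groups differed in culture and in the way they were purified, and these cannot be told apart.

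A dividing cell first builds a kinetochore, a protein plate, on the centromere of each chromosome. Its inner layer marks the centromere and its outer layer holds spindle microtubules. Unattached kinetochores hold back anaphase through the spindle checkpoint. Cyclin-dependent, Aurora and Polo-like kinases drive these steps, and the anaphase-promoting complex ends them by marking cyclins and securin for destruction. In most cells transcripts of this machinery are low at rest and peak around mitosis, and T cells that leave rest after activation are a common example.

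Levels are in FPKM, fragments per kilobase of transcript, scaled to sequencing depth, which allows comparison between genes. After culture 44 of the 46 genes were higher, where 37.3% of the 11265 genes tested were called higher, and 2 were lower, where 33.1% were called lower. Any change was called for 70.4% of the genes tested. A gene was called at an adjusted p under 0.05. For all 46 the 3 Induced libraries lay wholly above or wholly below the 3 Initial libraries, where this held for 75.4% of tested genes. The Induced libraries lay above for 44 of them and below for 2, where 40.0% and 35.4% of tested genes did so. The median level over the genes went from 3.41 FPKM in Initial cells to 39.3 FPKM in Induced cells. The median log2 fold change of the genes was 3.17, against 0.03 over all genes tested. These fold changes were computed after adding 1 FPKM to each value, which understates the change of genes with low values. A log2 fold change of at least 1 was reached by 42 of the genes, against 12.0% of the genes tested. One of at least 3 was reached by 27 of them, against 1.52% of the genes tested, and 16 were among the 100 largest rises. In bulk RNA, fewer cells that carry a transcript and less RNA per cell cannot be told apart.

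**Figure D1:**
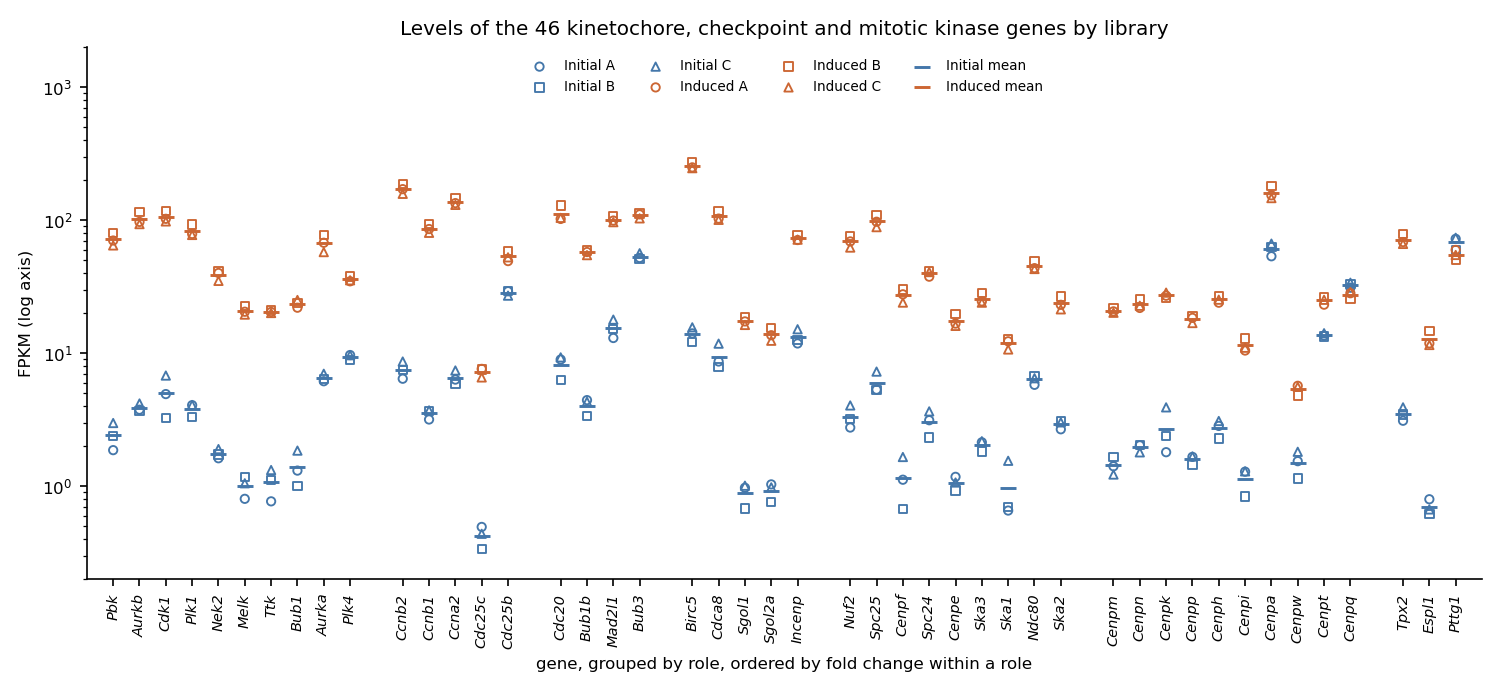
FPKM of the 46 genes in each library (log axis), with Initial libraries in blue, Induced libraries in orange, a marker shape per mouse and a bar at each group's mean. The Induced libraries sit above the Initial ones for every gene except Cenpq and Pttg1, which are lower.

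Together the 46 genes took 0.0947% ± 0.00454 (SD, n = 3) of the summed FPKM of the Initial libraries and 0.604% ± 0.0487 (SD, n = 3) of that of the Induced libraries. Their levels also moved closer together. In Initial cells the highest mean was 162 times the lowest (Pttg1 at 68.6 FPKM, Cdc25c at 0.423 FPKM), and in Induced cells 47.8 times (Birc5 at 256 FPKM, Cenpw at 5.36 FPKM). Only 5 of the genes exceeded 20 FPKM in every Initial library, namely Pttg1, Cenpa, Bub3, Cenpq and Cdc25b, and 36 did so in every Induced library. The ratio of group means for those 5 was 0.80, 2.63, 2.04, 0.844 and 1.88. It was at least 10 for 33 of the 46 genes.

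Because most of these genes moved together, their promoters were searched for elements known from cell cycle genes. The cell cycle homology region (searched as the letters TTTGAA or TTCGAA on either strand) is bound by the DREAM and MuvB complexes, which hold mitotic genes silent at rest and, with B-MYB and FOXM1, turn them on before mitosis. It often lies downstream of CCAAT boxes, which bind NF-Y. RefSeq promoter windows of GRCm38.p6, 250 bases before to 50 after a start, were found for 38 of the genes. The windows of Ccnb2 (chr9:70421555-70421804, minus strand), Cdk1 (chr10:69352913-69353162, minus strand) and Cdc20 (chr4:118437344-118437593, minus strand) are shown, without the part after the start, since these had the largest rises among genes with a cell cycle homology region before the start. Capitals mark matches to that region and to CCAAT or its complement ATTGG. In Ccnb2 the match shown to that region lies before all 3 CCAAT boxes. Its other match begins at base 5 after the start, in the part not shown.
Ccnb2: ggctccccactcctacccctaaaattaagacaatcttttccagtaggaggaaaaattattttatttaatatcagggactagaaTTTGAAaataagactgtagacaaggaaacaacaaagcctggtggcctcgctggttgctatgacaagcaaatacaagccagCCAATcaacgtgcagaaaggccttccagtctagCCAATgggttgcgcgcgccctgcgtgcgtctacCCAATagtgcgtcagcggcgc
Cdk1: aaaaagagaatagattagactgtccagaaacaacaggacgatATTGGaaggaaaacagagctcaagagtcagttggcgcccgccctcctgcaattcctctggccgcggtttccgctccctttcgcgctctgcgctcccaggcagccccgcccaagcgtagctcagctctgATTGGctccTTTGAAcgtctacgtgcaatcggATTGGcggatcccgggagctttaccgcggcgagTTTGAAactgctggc
Cdc20: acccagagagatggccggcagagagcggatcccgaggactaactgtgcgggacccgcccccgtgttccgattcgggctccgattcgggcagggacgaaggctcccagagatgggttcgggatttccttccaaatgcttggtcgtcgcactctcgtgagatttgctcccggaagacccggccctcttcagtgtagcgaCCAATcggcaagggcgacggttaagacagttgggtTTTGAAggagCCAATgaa

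Both elements were common in the windows of these genes. On either strand, the cell cycle homology region was found in 21 of 38 windows, or 55.3% (95% exact binomial interval 38.3 to 71.4%), against 19.4% of 27025 RefSeq windows and 14.4% of the 8351 windows of genes tested here. A CCAAT box was found in 28 of 38, or 73.7% (56.9 to 86.6%), against 37.9% and 39.8%. Both together were found in 19 of 38, with an interval of 33.4 to 66.6%, against 7.7% and 6.2%. E2F sites (searched as TTCCCGC or as its variants with the letters TTGGCGC or else TTCGCGC) were found in 7 of 38, or 18.4% (7.7 to 34.3%), against 8.2% and 15.6%. Of the 24 matches to the cell cycle homology region 20 began within 50 bases of the start, and 13 lay after it. Without the 50 bases after the start, the share of windows with this region was 26.3% (13.4 to 43.1%). That interval includes the 17.4% of RefSeq windows, and the share in windows of genes tested was 12.7%. The share with both elements was then 23.7% (11.4 to 40.2%), against 6.2% and 5.1%. Of the 52 CCAAT boxes 38 began in the 120 bases before the start. Of the 22 searched genes with a log2 fold change of at least 3, 15 windows held both elements and 3, those of Birc5, Nuf2 and Melk, held neither. Of the other 16 genes 4 windows held both, those of Bub3, Cdc25b, Cenpw and Cenpa, and 5 held neither. The window of Cenpq held 3 CCAAT boxes and no cell cycle homology region, and that of Pttg1 held neither. The starts in these windows lay 473 and 270 bases from the annotated start of their genes, and those of Cdca8, Cenpt and Cenpm lay 2394, 1270 and 412 bases from it. A match is a run of letters and not a measured binding site. Aurkb, Pbk, Ccna2, Cdc25c, Incenp, Spc24, Ska1 and Tpx2 were not searched.

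**Figure D2:**
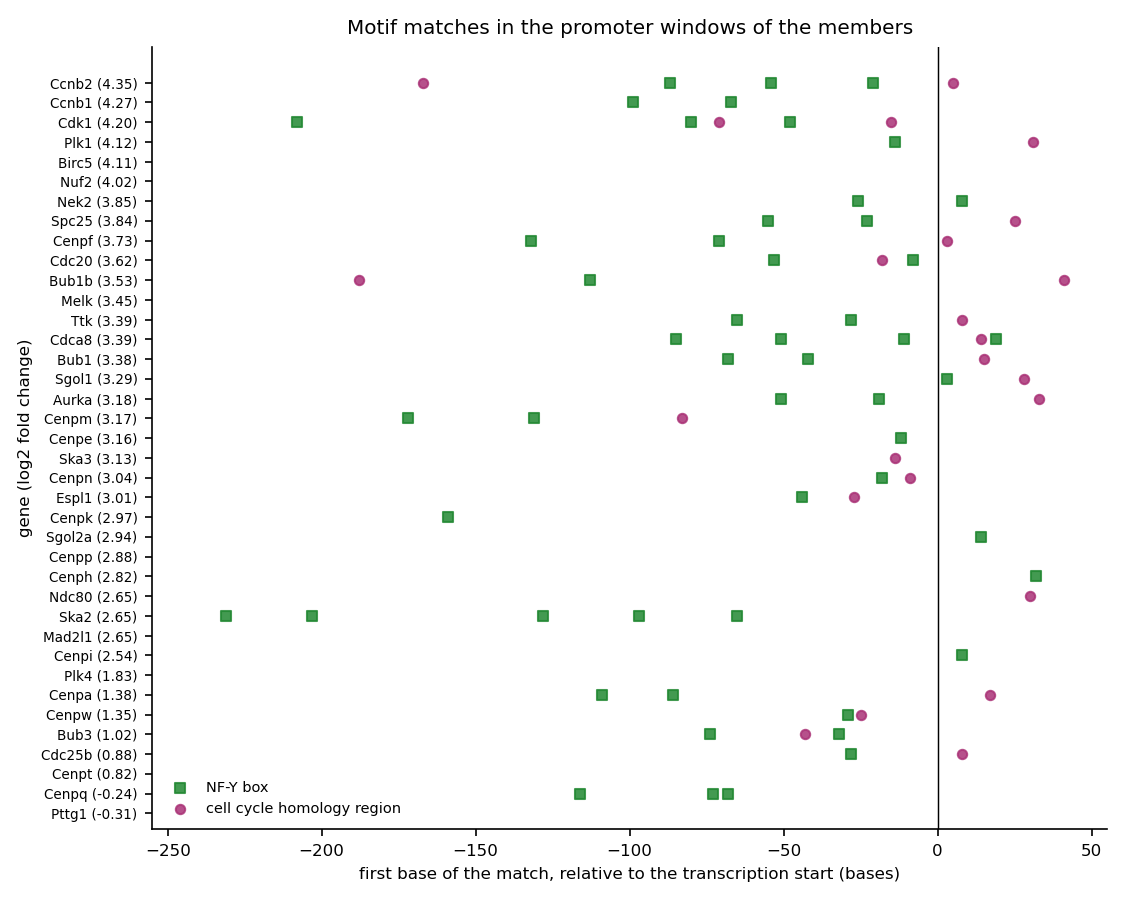
Position of each motif match relative to the transcription start (bases) in 38 promoter windows, with genes ordered by log2 fold change (in brackets); squares are NF-Y boxes (CCAAT) and circles cell cycle homology regions. The circles gather within 50 bases of the start, with the squares before them, and 8 windows hold neither.

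All 10 mitotic kinase genes rose. Pbk (ENSMUSG00000022033, chromosome 14, 65805837 to 65817822, plus strand, GRCm38), a kinase of dividing cells, stood at 1.86, 2.39 and 2.98 FPKM in Initial libraries A, B and C and in the same order at 70.2, 80.3 and 64.5 FPKM after culture. It had the largest log2 fold change of the 46, at 4.42 (SE 0.13, adjusted p = 1.31e-07). Aurkb (ENSMUSG00000020897, chromosome 11, 69045647 to 69051664, plus strand), the kinase of the chromosomal passenger complex, came next at 4.39 (SE 0.09). Cdk1, the kinase that starts mitosis, had 4.92, 3.26 and 6.78 FPKM before and 102, 117.5 and 97.7 FPKM after culture (log2 fold change 4.20, SE 0.20). Its Initial libraries spread widely (CV 35.4%), but all lay far below the Induced ones. Plk1, which acts at centrosomes and kinetochores, rose from 4.06, 3.32 and 4.08 FPKM to 78.7, 92.6 and 77.3 FPKM. Nek2, Melk, the checkpoint kinases Ttk and Bub1, and Aurka, which builds spindle poles, rose by 3.18 to 3.85 on the log2 scale. Plk4, the kinase that starts centriole duplication in S phase, changed least of the kinases. It had 9.67, 8.89 and 9.64 FPKM before and 34.7, 37.7 and 35.3 FPKM after culture (log2 fold change of 1.83 with SE 0.07, adjusted p = 3.68e-07). In Initial cells it was the most abundant of the 10, and in Induced cells Ttk, Melk and Bub1 alone had lower means.

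The cyclin genes rose to similar extents. Ccna2 went from 6.33, 5.84 and 7.41 FPKM in Initial libraries A, B and C to 134, 146 and 130 FPKM in the Induced libraries, and Ccnb1 from 3.17, 3.67 and 3.71 to 85.7, 93.4 and 80.2 FPKM. Ccnb2 had 6.42, 7.45 and 8.65 FPKM before and reached 171, 186 and 158 FPKM. Their log2 fold changes were 4.20, 4.27 and 4.35. Ccna2 overlaps Exosc9 on the other strand, and Ccnb1 shares 23.4% of its runs of 50 bases with transcripts of other genes, led by the pseudogene Ccnb1-ps (0.145 FPKM in Induced cells), so these 2 levels carry some uncertainty. The phosphatases that remove the brake on CDK1 differed. Cdc25c had 0.494, 0.335 and 0.439 FPKM in the Initial libraries, the lowest level of all 46 genes, and 7.61, 7.53 and 6.56 FPKM in the Induced libraries (log2 fold change 2.53, SE 0.11). Cdc25b had 29.2, 29.2 and 27.0 FPKM before and 49.2, 58.7 and 52.5 FPKM after culture (log2 fold change of 0.88 with SE 0.08, adjusted p = 3.10e-05). Cdc25b thus remained the more abundant of the pair in every library.

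The spindle checkpoint holds one gene that was already abundant in Initial cells. Bub3 (ENSMUSG00000066979, chromosome 7, 131560222 to 131571895, plus strand), which brings BUB1 and BUBR1 to kinetochores, stood at 52.0, 50.8 and 56.4 FPKM before and at 110, 112 and 103 FPKM after culture (log2 fold change of 1.02 with SE 0.07, adjusted p = 5.40e-06). Its partners started far lower. Bub1b, which encodes BUBR1, rose from 4.43, 3.36 and 4.31 FPKM to 57.5, 59.2 and 54.5 FPKM (log2 fold change 3.53, SE 0.10), and Bub1 from 1.31, 1.001 and 1.85 FPKM to 22.0, 23.8 and 25.1 FPKM (log2 fold change 3.38, SE 0.14). Mad2l1, whose product binds and blocks CDC20, rose from 13.0, 15.2 and 17.9 FPKM to 99.2, 106 and 96.5 FPKM. Cdc20, the activator of the anaphase-promoting complex, rose from 8.95, 6.30 and 9.29 FPKM to 102, 129 and 104 FPKM. It passed from a lower level than Mad2l1 in every Initial library to a higher one in every Induced library. Cdc20 overlaps Elovl1 (34.9 FPKM before and 68.7 FPKM after culture) on the opposite strand, and the sources used here do not say how read strand was treated. Exons of Cdca8, Sgol2a, Ska3, Cenpk and Cenpp likewise overlap those of an expressed gene on the opposite strand. Of these neighbours Sap18, at Ska3, was the most abundant (52.3 FPKM before and 53.7 FPKM after culture), so these levels are uncertain too.

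The chromosomal passenger complex corrects faulty attachments and later guides cytokinesis. Its small subunit gene Birc5 (survivin, ENSMUSG00000017716, chromosome 11, 117849251 to 117855743, plus strand) was the most abundant of the 46 in Induced cells. It went from 14.1, 12.2 and 15.6 FPKM to 249, 274 and 246 FPKM (a log2 fold change of 4.11 with SE 0.09, adjusted p = 5.06e-08), and in rank among all listed genes from 5219 to 252. Cdca8, encoding borealin, rose from 8.65, 7.83 and 11.8 FPKM to 103, 117 and 100 FPKM. Incenp, the scaffold that activates Aurora B, rose least of the complex, from 11.8, 12.6 and 15.1 FPKM to 70.8, 77.1 and 71.3 FPKM (log2 fold change 2.39, SE 0.10). The shugoshin genes Sgol1 and Sgol2a, whose products guard centromeric cohesin, were at 0.678 to 1.03 FPKM in the Initial libraries and at 12.4 to 18.5 FPKM in the Induced libraries. The order of levels in the complex was not kept. Birc5 was highest in each library except Initial B, where Incenp was. Incenp and Cdca8 exceeded Aurkb in each Initial library, while in each Induced library Aurkb exceeded Incenp and lay close to Cdca8.

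All 9 outer kinetochore genes rose, by 2.65 to 4.02 on the log2 scale. The NDC80 complex, the rod that grips microtubules, has 4 subunits. Ndc80 had 5.78, 6.77 and 6.47 FPKM in Initial libraries and 43.5, 49.1 and 42.9 FPKM in Induced libraries. Nuf2 rose from 2.76, 3.21 and 4.04 FPKM to 69.1, 76.1 and 62.2 FPKM, Spc25 from 5.31, 5.28 and 7.26 FPKM to 97.2, 109 and 88.5 FPKM, and Spc24 from 3.13, 2.32 and 3.65 FPKM to 37.5, 41.5 and 40.7 FPKM. Nuf2 thus lay below Ndc80 in every Initial library and above it in every Induced one. The SKA complex, which keeps kinetochores on shrinking microtubules, includes the gene whose Initial libraries spread most of the 46, Ska1 (CV 52.2%). Ska1 stood at 0.656, 0.698 and 1.55 FPKM there, with library C well above the others, and at 12.3, 12.7 and 10.7 FPKM after culture. Ska2 and Ska3 reached means of 23.7 and 25.6 FPKM from 2.92 and 2.04 FPKM. Cenpf (0.677 to 1.66 FPKM before, 24.0 to 30.1 FPKM after) and the kinetochore motor gene Cenpe (0.926 to 1.18 FPKM before, 16.02 to 19.7 FPKM after) showed similar low levels before culture.

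Inner kinetochore genes were the most mixed. Of 10, 9 rose, with log2 fold changes of 0.82 to 3.17, and Cenpq fell. Cenpa (ENSMUSG00000029177, chromosome 5, 30666777 to 30674830, plus strand), the histone H3 variant that marks centromeres, had 53.5, 62.7 and 66.5 FPKM in Initial libraries and 154, 180 and 146 FPKM in Induced libraries (log2 fold change of 1.38 with SE 0.11, adjusted p = 1.31e-05). Cenpt, whose product links the inner plate to the NDC80 complex, rose from 13.5, 13.4 and 14.1 FPKM to 23.1, 26.4 and 25.2 FPKM (log2 fold change of 0.82 with SE 0.07, adjusted p = 2.98e-05), the smallest rise of the 44. Cenpw, the partner of Cenpt, went from 1.54, 1.14 and 1.81 FPKM to 5.68, 4.81 and 5.58 FPKM and was the lowest of all 46 genes in Induced cells. Cenph, Cenpi, Cenpk, Cenpm, Cenpn and Cenpp, all subunits of the constitutive centromere network, lay between 0.835 and 3.91 FPKM before and between 10.5 and 28.5 FPKM after culture. Cenpk spread most among these in Initial cells, with 1.80, 2.38 and 3.91 FPKM in A, B and C.

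Cenpq and Pttg1 went the other way. Cenpq (ENSMUSG00000023919, chromosome 17, 40923051 to 40935047, minus strand), another subunit of the centromere network, had 31.0, 33.0 and 33.8 FPKM in Initial libraries and 28.2, 25.6 and 28.8 FPKM in Induced libraries (log2 fold change of -0.24 with SE 0.07, adjusted p = 0.0186). Its Initial level was far above that of Cenpk in each library, and in Induced cells the levels of both lay between 25.6 and 28.8 FPKM. Cenpq overlaps exons of Mut on the other strand, which had 6.43 FPKM before and 10.03 FPKM after culture. Pttg1 (securin, ENSMUSG00000020415, chromosome 11, 43420250 to 43426251, minus strand), the inhibitor that holds separase until anaphase, had 72.3, 59.9 and 73.6 FPKM in Initial libraries and 59.6, 50.2 and 54.7 FPKM in Induced libraries (log2 fold change of -0.31 with SE 0.10, adjusted p = 0.022). The groups barely missed overlap, with Initial B at 59.9 and Induced A at 59.6 FPKM. Neither call held when each library was scaled to its T cell receptor genes Cd3d, Cd3e, Cd3g, Cd247 and Trdc (adjusted p = 0.483 for Cenpq and 0.174 for Pttg1), or without Initial library C (0.0561 and 0.0692) or Induced library B (0.0717 and 0.0798). The call of Cenpq was also lost without Initial library B (0.0505), and that of Pttg1 without Initial library A (0.0774) and with low values left unfiltered (0.0526). The fold changes were -0.07 and -0.15 under that scaling, and otherwise lay between -0.19 and -0.23 for Cenpq and between -0.25 and -0.31 for Pttg1 where the call was lost. That scaling raised the median log2 fold change of all genes by 0.15 and the share of called genes that were higher from 52.9% to 63.8%. The target of securin, the separase gene Espl1, rose from 0.797, 0.617 and 0.668 FPKM to 11.8, 14.7 and 11.5 FPKM (log2 fold change of 3.01 with SE 0.12, adjusted p = 3.98e-07). Tpx2, which activates Aurora A on the spindle, rose from 3.10, 3.45 and 3.91 FPKM to 68.4, 78.3 and 66.2 FPKM.

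**Figure D3:**
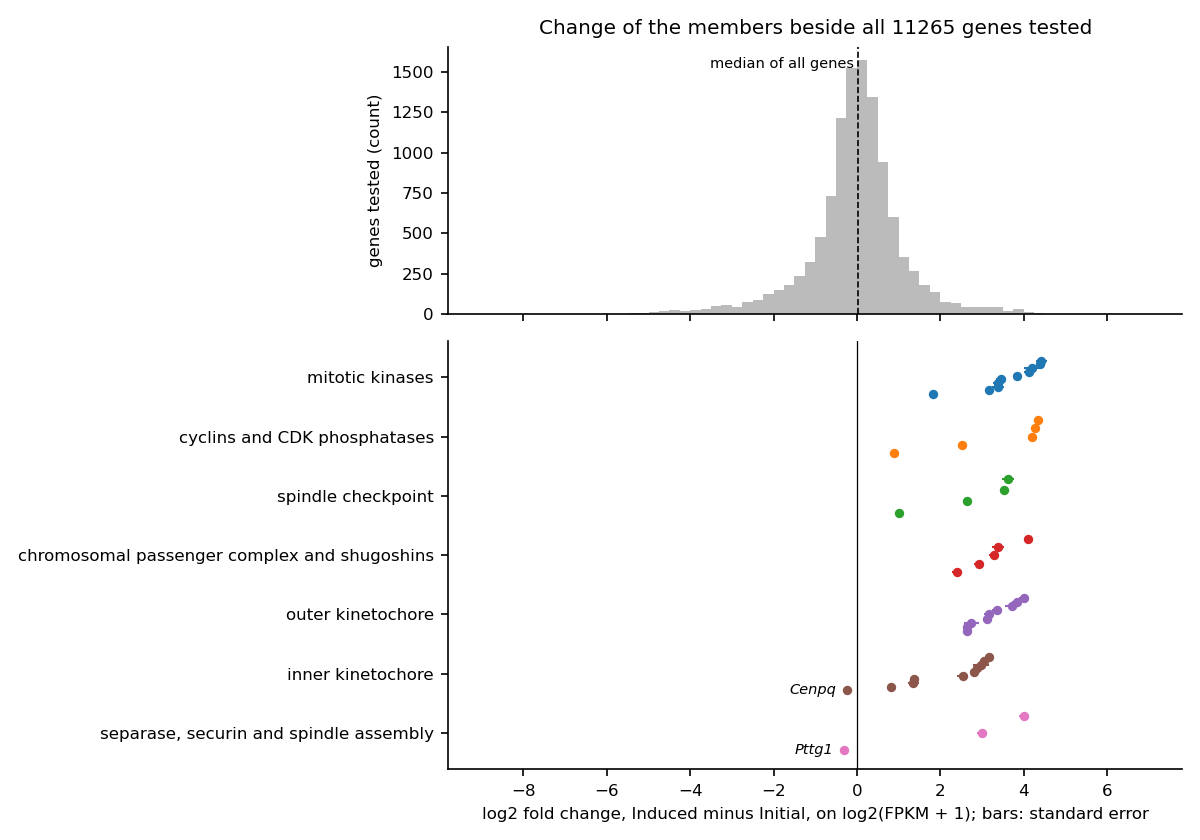
Top, distribution of log2 fold changes (Induced minus Initial) over all 11265 genes tested; bottom, the same for the 46 genes by role, with standard errors. Apart from Cenpq and Pttg1, the genes lie between 0.82 and 4.42, to the right of the median of all genes at 0.03.

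Ratios between 2 genes within a library do not depend on how that library was scaled. For 20 pairs of partners or related genes, the log2 ratio (0.1 FPKM added to each value) was compared by exact two-sided permutation tests over libraries. With 3 against 3 libraries the smallest possible p is 0.10, so no pair could pass. The groups did not overlap for 15 of the 20 pairs, each with p = 0.10 (0.133 after Benjamini-Hochberg adjustment over the 20 pairs by the same exact test). Non-overlap was as common among single genes, at 75.4% of those tested, so the count by itself says nothing particular about these pairs. The ratio of Pttg1 to Espl1 moved furthest. Securin transcripts were 90.7 to 110 times those of separase in Initial libraries and 3.43 to 5.04 times in Induced libraries. Espl1 was under 1 FPKM in every Initial library, so the Initial side of this ratio is imprecise. Plk4 was 2.37 to 2.68 times Plk1 before and 0.407 to 0.457 times after culture. Bub1b went from 0.0662 to 0.0853 of the level of Bub3 to 0.521 to 0.530 of it, with an SD of 0.01 on the log2 scale over the Induced libraries. In the passenger complex, Incenp went from 3.15 to 3.62 times the level of Aurkb to 0.672 to 0.764 times, and Cdca8 from 2.12 to 2.82 times to 1.02 to 1.08 times. Within the NDC80 complex, Nuf2 went from 0.474 to 0.625 times the level of Ndc80 to 1.45 to 1.59 times, and Spc25 from 0.780 to 1.12 times to 2.06 to 2.23 times. Cdc20 to Mad2l1 and Tpx2 to Aurka rose from below 1 in every Initial library to above 1 in every Induced library.

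The ratios of the cyclin genes differed less between the groups. Ccnb2 was 2.03 to 2.33 times Ccnb1 before and 1.96 to 1.99 times after culture, a difference of -0.08 on the log2 scale that turned to 0.07 with 1 FPKM added. Ccnb1 to Cdk1 (difference 0.15), Ccna2 to Cdk1 (-0.06) and Ska3 to Ska1 (0.00) overlapped between the groups, as did Cenpf to Cenpe (0.60) and Ska2 to Ska1 (-0.61). The exact permutation p-values of these 5 pairs, in that order, were 0.70, 0.90, 1, 0.20 and 0.30, and in so small a design they do not show that a ratio was kept. The last 2 differences were as large as that of Melk to Pbk (-0.60), whose groups did not overlap. In these 5 pairs the SD on the log2 scale was 0.36 to 0.59 over Initial and 0.04 to 0.09 over Induced libraries. All genes of these pairs had lower levels in Initial libraries, and the part of this in the spread was not tested.

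**Figure D4:**
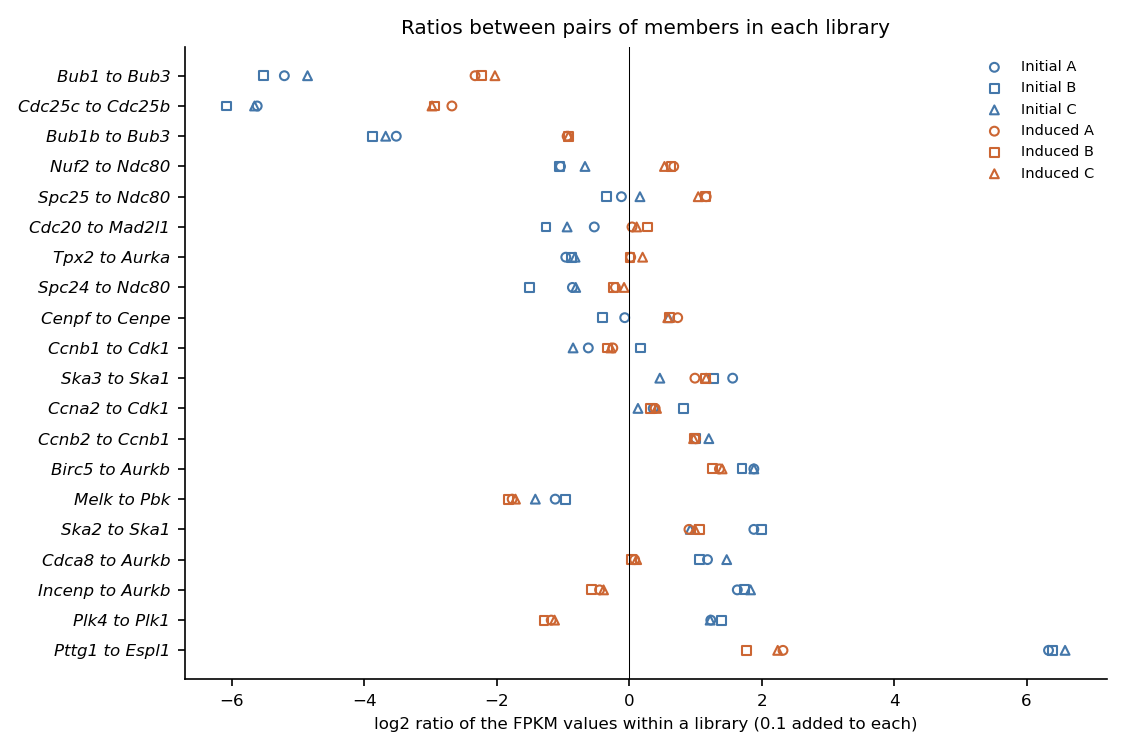
Log2 ratio of the FPKM values of 20 gene pairs in each library, ordered by the difference between the groups; Initial libraries are blue, Induced libraries orange, with a marker shape per mouse. Pttg1 to Espl1 falls furthest, and the groups overlap for Ccna2 and Ccnb1 to Cdk1, for Ska2 and Ska3 to Ska1 and for Cenpf to Cenpe.

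The libraries of a group also differed from each other in a shared direction. Induced library B had the highest value of its group for 40 of the 46 genes, where 28.5% of all tested genes were highest in B. Its median deviation from the group mean was 0.115 on the log2 scale over the 46 genes and -0.014 over all tested genes. Induced C was lowest for 32 of them, where 33.7% of all genes were lowest there. Among Initial libraries, C was highest for 34 genes, where 39.3% of all genes were highest there, with a median deviation of 0.101. Over the genes the median coefficient of variation was 13.9% in Initial and 8.42% in Induced cells, against 9.10% and 8.54% over all tested genes. This comparison was not matched for level. The median level of the 46 genes was 3.41 FPKM in Initial cells, and the part of low levels in their spread was not tested.

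Summed markers of erythroid cells, macrophages and B cells were lower in Induced cells. The summed FPKM of 9 erythroid markers was 1224 to 1748 in Initial and 1.28 to 1.79 in Induced libraries, that of 7 macrophage markers 440 to 780 and 1.63 to 4.34, and that of 6 B cell markers 186 to 226 and 25.0 to 48.1. Of these lists 8, 7 and 5 genes fell, where 33.1% of tested genes did. Alas2 and Klf1, defining genes of red cell precursors, had no entry in any Induced table and were at 12.8 to 19.5 and 0.663 to 1.41 FPKM in Initial libraries. Of 5 plasma cell markers 2 fell and 2 rose, where 33.1% and 37.3% of tested genes did. Jchain was at 205 to 247 FPKM before and 0.284 to 1.15 FPKM after culture. In contrast, Xbp1 was at 149 to 175 and then 186 to 225 FPKM, and Prdm1 at 2.5 to 4.2 and then 4.7 to 7.8 FPKM. The 7 neutrophil markers summed to 0.108 to 17.5 FPKM in Initial and 0.980 to 5.08 FPKM in Induced libraries. None of them reached 1 FPKM in 3 libraries, so none was tested for a change. Among Initial libraries the erythroid sum was highest in B, the macrophage sum in A and the B cell sum in C. Their part in the levels of the 46 genes was not tested. The 5 T cell markers Cd3d, Cd3e, Cd3g, Cd247 and Trdc summed to 1560 to 1696 and 1378 to 1502 FPKM, and 2 of them fell.

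Neighbouring parts of the machinery, 6 lists with none of the 46 genes, had lower median log2 fold changes than the 46 genes. Their counts stand beside 37.3% of all tested genes called higher and 33.1% called lower. Of 24 other kinetochore genes 20 rose, 1 fell and 3 were not called, with a median log2 fold change of 1.51. Oip5, a subunit of the complex that licenses CENP-A loading, had the largest rise (1.35, 1.36 and 2.28 to 28.1, 31.0 and 26.7 FPKM), and Knl1, the scaffold for BUB1, the next (2.62, 1.83 and 2.70 to 31.5, 32.0 and 28.0 FPKM). Bod1 fell from 14.2 ± 1.80 to 8.65 ± 0.655 FPKM (SD, n = 3). Of 8 condensin genes 7 rose (median 2.47 for the list), led by Ncapg (2.22 ± 0.657 to 52.2 ± 2.17 FPKM) and Ncaph (5.21 ± 0.588 to 63.7 ± 2.62 FPKM). Smc4, a core ATPase of both condensins, fell from 168, 191 and 168 FPKM to 107, 111 and 105 FPKM, while its partner Smc2 rose from 19.8 ± 0.992 to 105 ± 8.94 FPKM.

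The anaphase-promoting complex and cohesin showed a few large rises among small changes. Of 17 genes of the former 13 rose and 4 were not called, with a median log2 fold change of 0.58. Its ubiquitin-conjugating enzyme gene Ube2c went from 7.18, 5.75 and 9.01 to 150, 174 and 141 FPKM and its inhibitor gene Fbxo5 from 6.62 ± 1.26 to 63.6 ± 2.33 FPKM (SD, n = 3). The calls of Anapc1, Anapc7 and Anapc10 here, of Cenpb and Cenpv among kinetochore genes and of Mau2 in cohesin were lost without 1 library or another (adjusted p = 0.0518 to 0.114). Those of Anapc1 and Anapc7 were lost with the mouse as a block (adjusted p = 0.0561 and 0.0562), as was that of Cenpb of the kinetochore list (0.0568). Of 13 cohesin genes 7 rose and 4 fell (median 0.38), the latter a share near that of all tested genes. The acetyltransferase gene Esco2 (1.66 ± 0.311 to 40.1 ± 2.08 FPKM) and Cdca5, encoding sororin (4.70 ± 1.19 to 44.1 ± 2.86 FPKM), rose most, and the loader gene Nipbl (10.6 ± 1.34 to 5.89 ± 0.363 FPKM) and Stag2 (27.0 ± 2.72 to 19.0 ± 1.82 FPKM) fell most.

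Of 16 regulators of mitotic entry and exit 9 rose and 4 fell (median 0.80), and 70.4% of all tested genes were called in either direction. The cyclin F gene Ccnf (2.74 ± 0.328 to 49.97 ± 4.30 FPKM) and the kinase gene Nek6 (0.915 ± 0.241 to 12.9 ± 0.871 FPKM) rose most. Ppp2r5a, a regulatory subunit of protein phosphatase 2A (92.5 ± 4.33 to 34.9 ± 7.41 FPKM), and the phosphatase gene Cdc14a (9.54 ± 0.988 to 3.95 ± 0.418 FPKM) fell most. The list for the transcription of mitotic genes holds activators and repressors alike. Of its 15 genes 14 rose (median 0.46), and the other, Nfyc, was at 36.4 ± 2.17 and 36.8 ± 0.617 FPKM (limma adjusted p = 0.844). Mybl2, which encodes B-MYB, rose from 1.74, 1.83 and 1.71 FPKM to 23.3, 22.8 and 22.4 FPKM, and Foxm1 from 2.50, 1.27 and 1.88 FPKM to 20.3, 24.6 and 19.2 FPKM. They had the largest rises of that list. Rbl1, Rbl2 and E2f4, whose products belong to the DREAM complex, rose by 1.21, 1.06 and 0.46 on the log2 scale. Cdkn1a and Trp53 rose by 1.69 and 0.21.

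**Figure D5:**
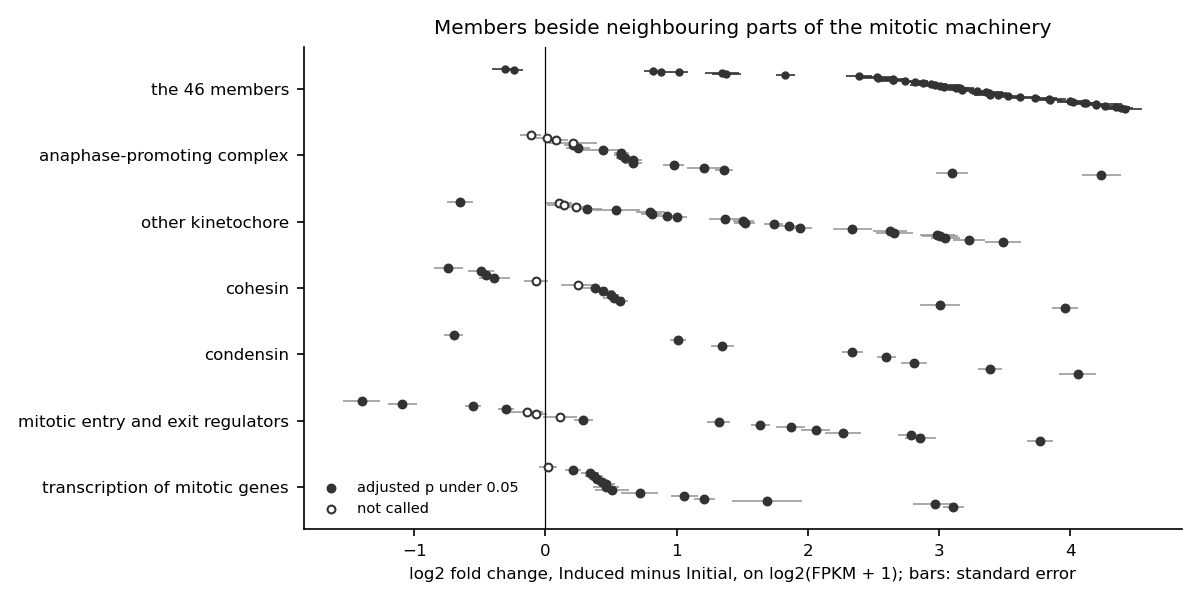
Log2 fold change (Induced minus Initial) with standard error of the 46 genes and of 6 lists of neighbouring genes; filled points were called at an adjusted p under 0.05. The 46 genes lie mostly between 2 and 5, while most genes of the anaphase-promoting complex, cohesin and transcription lists lie below 1.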

How the data were processed

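The authors prepared mRNA libraries with a VAHTS kit, per the labels' protocols, and deposited FPKM values from Cuffdiff, 1 table per library. The submitters' processing notes name CASAVA, HISAT2 2.0.5, Cuffdiff 1.3.0 and 2.2.1, and the build mm9. Of 26669 identifiers found in GENCODE M21 (GRCm38), 90.99% had their whole annotated gene inside the span the files give, so positions are given from that annotation. A gene with no entry in a library was set to 0.

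The members and gene lists were chosen with earlier results of these data known. Named genes are all 46 members and, from each list, the called genes with the 2 greatest increases and the 2 greatest decreases. Others named for contrast were chosen after their values were seen. They were Smc2, Nfyc, Rbl1, Rbl2, E2f4, Cdkn1a, Trp53, Exosc9, Elovl1, Sap18, Mut, Xbp1, Prdm1 and genes whose call was lost. A gene was tested where 3 or more libraries reached 1 FPKM. The test was limma 3.58.1 (R 4.3.3) on log2(FPKM + 1) values (trend, robust, two-sided, Benjamini-Hochberg over all 11265 genes, no block). All 46 members passed this filter. The filter was met through the Induced libraries alone by 2 of the genes, Cdc25c and Espl1, which were under 1 FPKM in all Initial libraries. Ttk, Melk, Sgol1, Sgol2a, Ska1, Cenpe, Cenpf and Cenpi were under 1 FPKM in at least 1 Initial library. They passed only with Induced libraries counted, where they were high. The other 36 genes reached 1 FPKM in all 3 Initial libraries. Cdc25c, Espl1 and the genes that needed Induced libraries are all counted among the 44 genes called higher. A check of the test on simulated data had few changed genes and no noise shared within a library. It was thus unlike these data, and no result here rests on it. No label says that libraries of a group came from separate cultures beyond the mouse letter. Letters pair the libraries by mouse. Correlations of deviations from group means were 0.039, 0.031 and 0.131 for A, B and C and -0.132 to 0.099 between mice. Depth, from steps between low values, was roughly 18900000 to 23300000 fragments per library. The estimate is rough, since 42.8 to 46.7% of low values were whole multiples to within 0.15, and 30% would be by chance. The intervals of motif shares cover counting error only. Alternatives were other pseudocounts, filters, scalings and tests, the mouse as a block and each library left out. Figures were drawn with matplotlib 3.10.9 and tests run with scipy 1.17.1 in Python 3.11.15.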

Additional observations from a re-analysis of the deposited data

How the results depend on the processing

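Of the 46 genes, 44 kept their direction and their call under each of 15 alternatives in which they were tested. Cdc25c and Espl1 were left untested when an Induced library was left out, and Cenpw with the filter at FPKM 5. The count of genes lower in Induced cells, 2 in the report, was 1 without a filter on low values and 0 with scaling to the T cell receptor genes. It ranged from 0 to 2 when 1 library was left out. With the mouse as a replicate block, 44 genes were higher and 2 lower, and the calls of Anapc1, Anapc7 and Cenpb were the ones lost among the genes and lists described. With 1 library left out, calls were lost for Anapc1 (Initial A or C, Induced A or C), Anapc7 (Initial A or B, Induced A or B), Anapc10 (Initial A or C, Induced A or B), Cenpb (Initial A or B), Cenpv (Initial A or C, Induced C) and Mau2 (Initial B or C, Induced B), with adjusted p of 0.0518 to 0.114 from limma. The scaling to T cell receptor genes lost Mau2 and Ensa (0.119 and 0.17), no filter lost Anapc1, Anapc7, Anapc10, Cenpb and Cenpv (0.0501 to 0.0704), TMM-like factors lost Anapc7 (0.0567), and quantile normalization lost Anapc1 and Anapc7 (0.0646 and 0.0946). The median log2 fold change of the 46 genes was 3.77 with a pseudocount of 0.1 and 2.11 with a pseudocount of 5. With windows cut to the 250 bases before the start, the share with a cell cycle homology region was 26.3% and with both elements 23.7%. Ratio differences changed sign for 4 pairs. Leaving out 1 library gave -0.06 (without Initial C) to 0.45 for Ccnb1 to Cdk1, -0.22 to 0.13 (without Initial B) for Ccna2 to Cdk1, and -0.32 (without Initial C) to 0.24 for Ska3 to Ska1, which was -0.02 and -0.03 without Induced B and C. With 1 FPKM added, Ccna2 to Cdk1 was 0.00 and Ccnb2 to Ccnb1 0.07. Of 140 recomputed ratio differences 7 changed sign and 9 moved by more than the spread between libraries, each of these 9 with 1 FPKM added. Depth, known only roughly, limits the precision of genes near 1 FPKM in Initial cells.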
